A study of Mus musculus with 9 samples.

Results

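The genes described are 10 genes that macrophages are known for when they take up an M2-like or a lipid-associated state: Arg1, Mrc1, Cd163, Trem2, Spp1, Gpnmb, Chil3, Retnla, Clec10a and Folr2. They were chosen by name, out of 52163 gene symbols in the tables, and all 10 were listed in all 9 tumors. RNA of whole tumors was sequenced from 3 groups of 3 mice, with 1 tumor per mouse: PBS-treated controls, and mice given anti-PD-1 antibody whose tumors were nonresponsive or responsive to it. The tumors were grown from Hepa1-6, a mouse hepatoma cell line, as pieces of tumor placed in the left liver lobe of male C57BL/6 mice bought at 6 to 8 weeks of age. PBS or antibody against PD-1, an inhibitory receptor of T cells, was injected into the peritoneum at 4-day intervals for 5 injections, from day 10 to day 26. The antibody dose was 5 mg per kg. Tumors were taken on day 27 with the surrounding tissue cut away. Antibody-treated mice were called nonresponsive or responsive by the size of the tumor, with the 3 largest and the 3 smallest taken. Tumors of intermediate response were left out, so these 2 groups differ in tumor size by construction. All tumors came from 1 cell line in a host whose own liver cells remain around the graft, and the RNA is that of every cell in the piece.

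Macrophages exposed to IL-4 or IL-13 signal through the IL-4 receptor α chain and STAT6, and in mice they then induce Arg1, Chil3, Retnla, Mrc1 and Clec10a, the genes that define the M2-like state. Lipid-associated macrophages carry the receptor Trem2, which binds lipids and apolipoproteins and signals through Tyrobp, and they express Gpnmb and Spp1. Cd163 and Folr2 mark tissue-resident and perivascular macrophages. Several of these genes are also made elsewhere in the liver: hepatocytes use Arg1 in the urea cycle, sinusoidal endothelial cells carry Mrc1, bile duct and hepatoma cells secrete Spp1, neutrophils hold Chil3 and dendritic cells carry Clec10a.

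The upstream sequence of 8 of the 10 genes was at hand from RefSeq (build GRCm38.p6), and 2 of them are shown because, with Folr2 left aside for its 5 tumors listed at 0, they are the genes with the widest spread between tumors, and both are textbook STAT6 targets. Each window holds the 250 bases before the annotated start, 5′ to 3′ on the strand of the gene, with matches in capitals. Retnla lies on the plus strand at chr16:48842359-48842608, and its capitals mark a STAT6-type match TTCNNNNGAA at -145 and, next to it at -134, a C/EBP-type match TTNNGCAA read on the opposite strand.
Retnla: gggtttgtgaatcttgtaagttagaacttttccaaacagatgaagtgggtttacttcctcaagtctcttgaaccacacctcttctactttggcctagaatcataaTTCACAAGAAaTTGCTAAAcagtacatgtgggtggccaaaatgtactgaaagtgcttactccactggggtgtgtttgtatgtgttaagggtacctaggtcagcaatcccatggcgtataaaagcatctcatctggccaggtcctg
Chil3 lies on the minus strand at chr3:106167565-106167814, and its capitals mark a shorter STAT match TTCNNNGAA at -172.
Chil3: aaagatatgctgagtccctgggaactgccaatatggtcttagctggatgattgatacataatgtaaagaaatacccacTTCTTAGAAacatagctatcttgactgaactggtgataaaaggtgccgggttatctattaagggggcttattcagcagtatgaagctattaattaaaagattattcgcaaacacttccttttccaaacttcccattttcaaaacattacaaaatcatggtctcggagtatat
Both strands were searched and N stands for any base. TTCNNNNGAA was found in 5.85% of 32851 windows of this length and among the 8 genes in Retnla alone. TTCNNNGAA was found in 7.02% of windows and among the 8 in Chil3 alone, and TTNNGCAA was found in 9.56% of windows and in Spp1 and Retnla. These are matches of letters in a window, not measured binding sites.

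The values are FPKM, fragments scaled to transcript length and to the total mapped in that tumor, as the authors deposited them. Differences between groups were tested with limma on log2(FPKM + 1), on the 6 tumors of each comparison, over every gene that reached an FPKM of 1 in 3 or more of them, with Benjamini-Hochberg adjustment over all genes tested. With 3 against 3 tumors an exact permutation test cannot go below p = 0.1. Sequencing depth is unknown, as the tables hold no read counts. Since whole tumors were sequenced, fewer cells of a type and less RNA per cell cannot be told apart.

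The general macrophage genes were present in every tumor: Lyz2, the lysozyme of myeloid cells, lay between 603 and 6745 FPKM and Ctss, a lysosomal protease, between 262 and 1291 FPKM. The mean log2 level of 15 such genes was 7.54 to 7.76 in nonresponsive tumors 1 and 2 and responsive tumor 1, and 5.56 to 6.89 in the other 6 tumors. Nonresponsive tumor 1 and responsive tumor 1 also had the lowest summed FPKM of the markers of the tumor cells themselves. The 7 Hepa1-6 tumor genes summed to 45.8 and 46.4 FPKM in them against 83.7 to 287 FPKM in the other 7 tumors. Afp, the fetal liver protein that hepatoma cells express, was at 0.321 and 0.646 FPKM against 4.40 to 56.5 FPKM. By mean log2 level of the list they were at 2.40 and 2.42, close to responsive tumor 3 at 2.48. Not every gene of the list was low in them. Igf2, whose row also names Gm49394, was at 5.47 and 6.13 FPKM against 0.771 to 5.20 FPKM, and was named after its values were seen. The 15 hepatocyte genes had a mean log2 level of 5.59 ± 1.80 in PBS, 7.05 ± 0.87 in nonresponsive and 8.42 ± 0.49 in responsive tumors (SD, n = 3 each). The plot of marker lists shows these levels tumor by tumor.

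**Figure D1:**
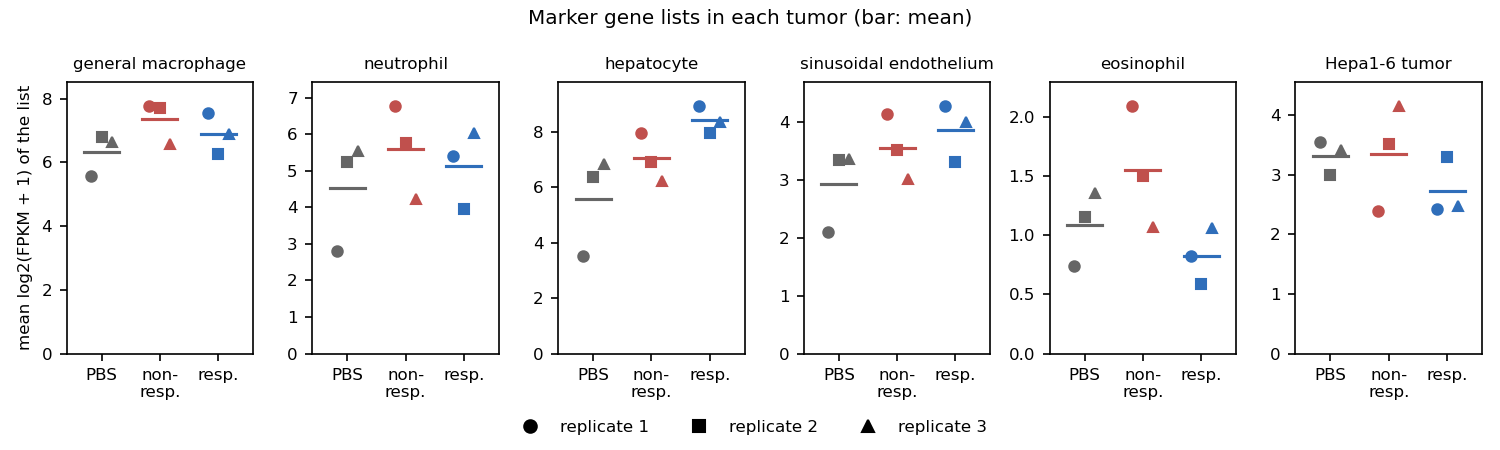
Mean log2(FPKM + 1) of 6 lists of cell type markers (y axis of each panel) in the 3 groups (x axis). Points are tumors, their shape is the replicate number and the horizontal bar is the group mean. The group mean of hepatocyte genes was highest in responsive tumors, at 8.42, and PBS tumor 1 was lowest for macrophage, neutrophil and hepatocyte genes.

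By level per length, Spp1 and Arg1 stood far above the other members, with means over the 9 tumors of 522 and 295 FPKM. Gpnmb followed at 90.6 FPKM and Trem2 at 42.9 FPKM. Mrc1 had a mean of 21.1 FPKM, Chil3 16.0, Clec10a 12.1, Retnla 6.72 and Cd163 3.17 FPKM. Every pair of neighbours in this order overlapped between tumors. Folr2 is left out of this order. Within a gene above 0 in every tumor, the highest tumor stood 3.32 times above the lowest for Spp1, 3.74 times for Clec10a and 4.42 times for Mrc1, and up to 16.7 times for Chil3. PBS tumor 1 was the lowest of all 9 for Arg1, Cd163, Trem2, Gpnmb and Chil3. It also had the largest share of its summed FPKM in rows that name no gene, 81.5%. Whether this bears on its low values was not tested.

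**Figure D2:**
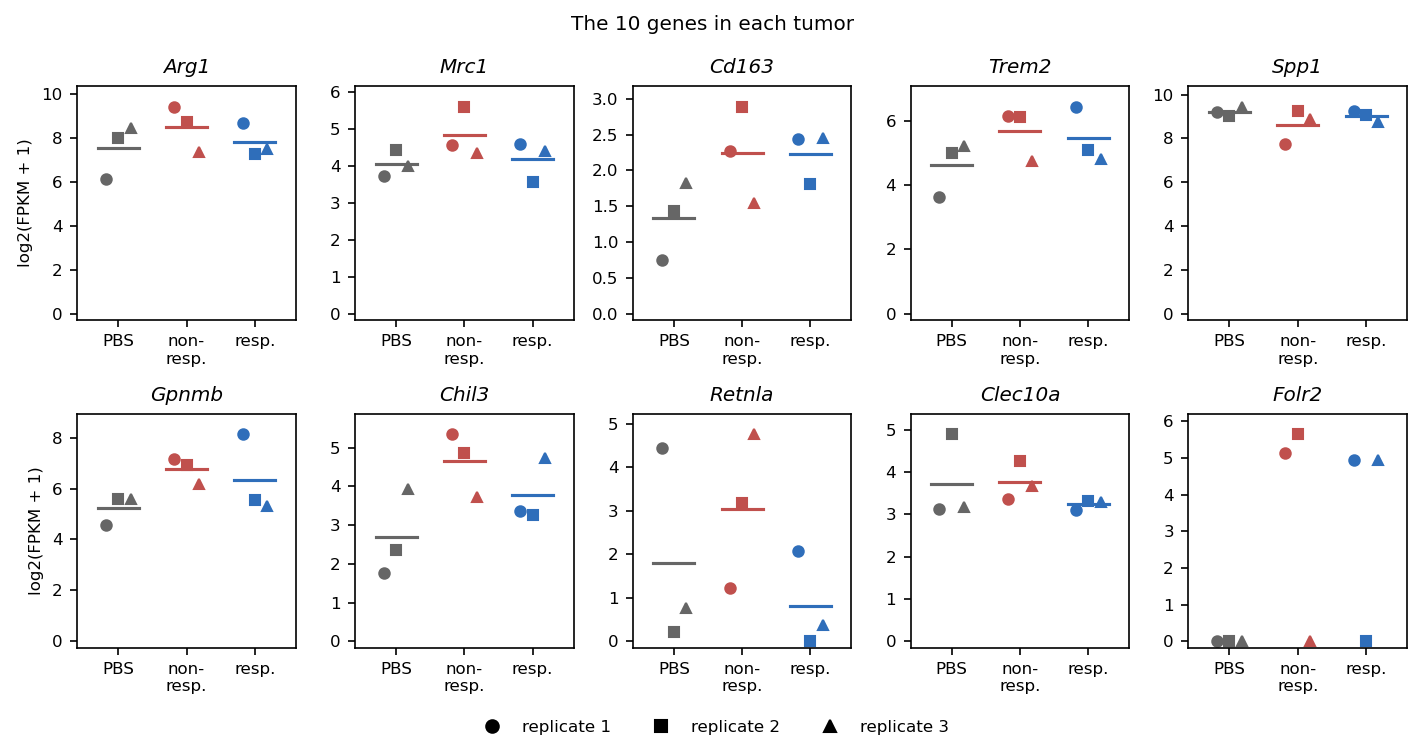
Level of each of the 10 genes as log2(FPKM + 1) (y axis) in the 3 groups (x axis). Points are tumors, their shape is the replicate number and the horizontal bar is the group mean, which is left out for Folr2. The groups did not overlap for Clec10a between responsive and nonresponsive tumors and for Gpnmb between nonresponsive and PBS tumors, and overlapped in every other pair of groups.

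Arg1, the arginase that turns arginine into ornithine and urea, was the strongest of the M2-like genes. Its FPKM was 68.9, 249 and 348 in the PBS tumors, 676, 414 and 162 in the nonresponsive tumors and 407, 150 and 177 in the responsive tumors. Each antibody group thus held tumors inside the PBS range and at least 1 above it. The difference of responsive from nonresponsive tumors was -0.69 on the log2(FPKM + 1) scale (SE 0.65, limma adjusted p = 0.973), and that of nonresponsive from PBS tumors was 0.97 (SE 0.79, limma adjusted p = 0.718). Of 10 urea cycle and arginine genes, 6 had a higher level at an unadjusted p under 0.05 in responsive than in PBS tumors, where 8.47% of all genes did. Odc1, which turns ornithine into putrescine, was the strongest of the 10 and 1 of 3 with a lower mean, at 201, 119 and 202 FPKM in PBS and 76.9, 125 and 109 FPKM in responsive tumors (-0.73, SE 0.31, limma adjusted p = 0.295). Ass1, which makes argininosuccinate, lay between 17.2 and 78.5 FPKM in PBS and between 104 and 242 FPKM in responsive tumors, a difference of 1.74 (SE 0.66, limma adjusted p = 0.287). Cps1, the entry enzyme of the cycle, was named after its values were seen, and lay between 1.46 and 13.7 FPKM in PBS, 10.2 and 32.2 FPKM in nonresponsive and 32.2 and 103 FPKM in responsive tumors. Arg1 in responsive tumors differed from PBS by 0.28 (SE 0.72, limma adjusted p = 0.823).

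Chil3, also called Ym1, a secreted chitinase-like protein, was at 2.37, 4.13 and 14.2 FPKM in PBS, 39.5, 28.3 and 12.3 FPKM in nonresponsive and 9.24, 8.60 and 25.7 FPKM in responsive tumors. Of the nonresponsive tumors only tumor 3 fell within the PBS range, while 2 of the 3 responsive tumors did. The mean level was higher in nonresponsive than in PBS tumors by 1.97 (SE 0.69, limma adjusted p = 0.718), with an unadjusted p under 0.05 that did not pass the adjustment. It stayed under 0.05 only without PBS tumor 3 or nonresponsive tumor 3 when each tumor was left out in turn. Neutrophil genes also had a higher mean in nonresponsive than in PBS tumors, and their part in the difference was not tested: the mean log2 level of 11 of them was 4.54 ± 1.499 in PBS and 5.59 ± 1.27 in nonresponsive tumors (SD, n = 3 each), S100a9 lay between 83.8 and 1160 FPKM and between 254 and 2760 FPKM, and none of the 11 was at 0 in a tumor.

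Retnla, the secreted resistin-like protein also called FIZZ1, varied most. It was at 20.8, 0.157 and 0.711 FPKM in PBS, 1.33, 7.98 and 25.98 FPKM in nonresponsive and 3.23, 0 and 0.292 FPKM in responsive tumors. High tumors were found in the PBS and nonresponsive groups only, and each of these groups also held a tumor below 2 FPKM. Cufflinks' own interval for the 0.157 FPKM of PBS tumor 2 reached down to 0, and for the 20.8 FPKM of PBS tumor 1 it was 17.0 to 24.5 FPKM. The difference of responsive from nonresponsive tumors was -2.23 (SE 1.01, limma adjusted p = 0.892). Retnla was not tested between responsive and PBS tumors, since only 2 of those 6 tumors reached an FPKM of 1. Of the cytokines that induce the M2-like state, Il4 was listed at 0 in PBS tumor 2, nonresponsive tumor 2 and every responsive tumor. It lay between 1.77 and 5.02 FPKM in the others. Il13 was listed between 0 and 0.382 FPKM, and both genes were named after their values were seen. An exact 0 can be a failed estimate, as set out for Folr2 below, so these zeros are given as listed.

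Among the scavenging and lectin receptors, Mrc1, the mannose receptor CD206, was at 12.1, 20.5 and 14.9 FPKM in PBS, 22.5, 47.4 and 19.2 FPKM in nonresponsive and 23.0, 10.7 and 19.9 FPKM in responsive tumors. Nonresponsive tumor 2 was above all others and the remaining 8 overlapped. The difference of responsive from nonresponsive tumors was -0.65 (SE 0.44, limma adjusted p = 0.973) and that of responsive from PBS tumors 0.13 (SE 0.34, limma adjusted p = 0.825). Nonresponsive tumors differed from PBS by 0.79 (SE 0.39, limma adjusted p = 0.718).

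Cd163, the scavenger receptor for hemoglobin bound to haptoglobin, was low throughout, at 0.682, 1.70 and 2.53 FPKM in PBS, 3.83, 6.42 and 1.93 FPKM in nonresponsive and 4.43, 2.51 and 4.50 FPKM in responsive tumors. Responsive tumor 2 fell just under the highest PBS tumor. Its mean level was higher in responsive than in PBS tumors by 0.90 (SE 0.35, limma adjusted p = 0.287), and the gap to nonresponsive tumors was 0.00 (SE 0.40). Leaving out each of the 6 tumors in turn, the unadjusted p stayed under 0.05 only without PBS tumor 3 or responsive tumor 2, and the limma adjusted p lay between 0.16 and 0.602.

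Clec10a, a lectin that binds galactose-type sugars, was at 7.76, 28.6 and 7.99 FPKM in PBS, 9.28, 18.1 and 11.8 FPKM in nonresponsive and 7.67, 8.95 and 8.83 FPKM in responsive tumors. All responsive tumors lay below all nonresponsive tumors, with 8.95 FPKM in the highest of the former and 9.28 FPKM in the lowest of the latter. In PBS tumor 2 the row also names Mgl2, a neighbouring lectin gene, so that its value there holds both. The difference of responsive from nonresponsive tumors was -0.52 (SE 0.27, limma adjusted p = 0.91), with an exact permutation p = 0.1. With Clec10a and Mgl2 summed in every tumor, the PBS tumors were at 32.7, 28.6 and 28.8 FPKM, the nonresponsive at 18.8, 37.1 and 31.9 FPKM and the responsive at 14.8, 21.7 and 21.4 FPKM. The sum was lower in all responsive than in all PBS tumors, with a difference of -0.63 (SE 0.19, limma adjusted p = 0.246). In that comparison 28% of the genes tested had groups that did not overlap, in either direction. The sum overlapped between responsive and nonresponsive tumors.

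Folr2, the folate receptor β, was listed at 0 in the 3 PBS tumors, at 34.5, 49.0 and 0 FPKM in nonresponsive and at 30.0, 0 and 30.1 FPKM in responsive tumors. An exact 0 in these tables can be a failed estimate: of 9002 genes that reached an FPKM of 10 in 4 or more tumors, 558 (6.20%) were listed at 0 in some tumor. The 5 tumors at 0 are therefore given as listed, and Folr2 is left out of the differences, medians and correlations below.

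Of the lipid-associated genes, Trem2 was at 11.4, 30.7 and 35.8 FPKM in PBS, 68.9, 68.0 and 25.9 FPKM in nonresponsive and 85.3, 33.2 and 27.04 FPKM in responsive tumors. The 3 highest tumors were the 3 with the highest level of general macrophage genes, and the other 6 lay at or below 35.8 FPKM whatever their group. Differences were -0.22 (SE 0.58) of responsive from nonresponsive tumors, 0.84 (SE 0.60) of responsive from PBS tumors and 1.06 (SE 0.58) of nonresponsive from PBS tumors, with limma adjusted p = 0.984, 0.439 and 0.718.

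Gpnmb, a transmembrane glycoprotein of lysosome-rich macrophages, was at 22.5, 47.0 and 47.4 FPKM in PBS, 143, 120 and 71.8 FPKM in nonresponsive and 278, 45.3 and 39.0 FPKM in responsive tumors. All nonresponsive tumors lay above all PBS tumors, while the responsive group held the highest tumor of all and 2 within the PBS range. The row names Gm19253 too in nonresponsive tumors 1 and 2 and responsive tumor 1, and names Malsu1, a gene for a mitochondrial ribosome factor, in nonresponsive tumor 3. The mean level was higher in nonresponsive than in PBS tumors by 1.52 (SE 0.41, limma adjusted p = 0.718). Without nonresponsive tumor 3 it was 1.80 (SE 0.40, limma adjusted p = 0.359). With Gpnmb, Gm19253 and Malsu1 summed in every tumor it was 0.42 (SE 0.37, limma adjusted p = 0.701) and the groups overlapped, at 72.5 to 103 FPKM in PBS and 71.8 to 173 FPKM in nonresponsive tumors. Leaving out nonresponsive tumor 1 and responsive tumor 1, the difference of responsive from nonresponsive tumors was -1.13 (SE 0.35, limma adjusted p = 0.687), against -0.44 (SE 0.80, limma adjusted p = 0.98) with them.

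Spp1, the secreted phosphoprotein osteopontin, had lower mean levels in both antibody groups than in PBS tumors. Its row always names Gm42793 too, and it was at 585, 523 and 700 FPKM in PBS, 211, 616 and 475 FPKM in nonresponsive and 612, 541 and 437 FPKM in responsive tumors. Apart from nonresponsive tumor 1, the tumors spanned 437 to 700 FPKM and the groups overlapped. The difference of nonresponsive from PBS tumors was -0.60 (SE 0.44, limma adjusted p = 0.718) and that of responsive from nonresponsive tumors 0.41 (SE 0.45, limma adjusted p = 0.973), which became -0.15 (SE 0.34) without nonresponsive tumor 1 and responsive tumor 1. Of 11 genes for receptors and regulators of osteopontin and GPNMB, Cd44, an osteopontin receptor, was at 134 to 157 FPKM in PBS, 95.1 to 117 FPKM in nonresponsive and 60.4 to 103 FPKM in responsive tumors. Its difference from PBS was -0.82 (SE 0.25, limma adjusted p = 0.281) in responsive and -0.47 (SE 0.18, limma adjusted p = 0.718) in nonresponsive tumors, and neither passed the adjustment. The list of 11 as a whole was not lower. Its median difference from PBS was 0.01 in responsive tumors, with 6 genes higher on average, and 0.14 in nonresponsive tumors, with 7 higher. At an unadjusted p under 0.05, 1 was higher and 3 lower in responsive tumors, against 8.47% and 8.75% of all genes. In nonresponsive tumors 0 were higher and 1 lower, against 1.51% and 1.71% of all genes.

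Taking the comparisons in turn, responsive tumors were set against nonresponsive tumors to ask which of these genes went with the response to the antibody. With limma, 0 of the 9 members other than Folr2 passed an adjusted p of 0.05, where 0.116% of 13845 genes tested did. At an unadjusted p of 0.05, 0 members were higher and 0 lower, against 4.05% and 1.44% of all genes. Clec10a alone had groups that did not overlap, 1 of 9 against 4.75% of genes lower in this sense. The median difference of the 9 was -0.52 against -0.07 over all genes, and 1 of them, Spp1, had a higher mean. The 15 general macrophage genes had a median of -0.45. With genes that share a row summed, the list held 14 loci with a median of -0.27. The 16 other M2-like genes had a median of -0.25, with 0 higher and 1 lower at an unadjusted p of 0.05, and the 17 other lipid-associated genes had a median of -0.09 with 0 in either direction. Among the M2-like genes the 1 was Tgm2, a transglutaminase, at 178 to 261 FPKM in nonresponsive and 127 to 153 FPKM in responsive tumors (-0.59, SE 0.23, limma adjusted p = 0.885). Of 12 tested IL-4 and IL-13 signaling genes 0 were higher and 1, the receptor chain Il13ra1, named after its values were seen, was lower at that level (-0.51, SE 0.20, limma adjusted p = 0.885), with a list median of -0.26, and of 14 M1-like genes 0 were higher and 0 lower, with a median of -0.37.

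Responsive tumors were next set against PBS tumors. The responsive tumors were picked as the smallest after treatment, so treatment and selection by size cannot be told apart in this comparison. Retnla and Folr2 did not reach the minimum, and of the 8 members tested 0 passed the adjusted threshold with limma, where 0.231% of 13852 genes did. Cd163 was the only 1 at an unadjusted p under 0.05, higher, against 8.47% of genes higher and 8.75% lower, and the groups overlapped for all 8 where 28% of genes had groups that did not. Clec10a summed with Mgl2 in every tumor was lower in all responsive than in all PBS tumors. The median of the 8 members was 0.56 against -0.11 over all genes and 0.57 for the general macrophage genes. The other lipid-associated genes had a median of 0.69, with 14 of 17 higher on average, and with Nr1h3, a lipid-sensing receptor listed at 0 in 2 PBS tumors, higher and Cd9 lower at an unadjusted p under 0.05, both named after their values were seen. Apoe, the apolipoprotein that both hepatocytes and macrophages make, was the strongest of them and lay between 3868 and 6364 FPKM in PBS and between 7832 and 14235 FPKM in responsive tumors (1.01, SE 0.48, limma adjusted p = 0.313). The other M2-like genes had a median of -0.10 with 0 higher and 3 lower, namely the chemokines Ccl17 and Ccl24 and the lectin Mgl2, each named after its values were seen. Mgl2, with Clec10a in its row in PBS tumor 2, was at 20.8 to 28.6 FPKM in PBS and 7.15 to 12.8 FPKM in responsive tumors (-1.15, SE 0.27, limma adjusted p = 0.281). Of 15 hepatocyte genes 13 were higher at that unadjusted level, with a median of 2.91.

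Nonresponsive tumors were last set against PBS tumors. They were picked as the largest after treatment, so treatment and selection by size cannot be told apart here either. With limma 0 of 9 members tested passed the adjusted threshold, where 0.0797% of 13806 genes did. Gpnmb and Chil3 were higher at an unadjusted p under 0.05, 2 of 9 against 1.51% of genes, and 0 were lower against 1.71%. For Gpnmb alone the groups did not overlap, where 3.23% of genes were higher in this sense, and the groups did overlap once Gm19253 and Malsu1 were summed with it in every tumor. The median of the 9 was 0.97 against -0.06 over all genes, with 8 higher on average. The 15 general macrophage genes had a median of 1.02, all 15 were higher on average and 4, namely C1qb, C1qc, Fcgr1 and Ms4a7, were so at an unadjusted p under 0.05, the last 3 named after their values were seen. C1qb and C1qc, chains of complement C1q, share 1 row in nonresponsive tumors 1 and 2, so they are not separate measurements there. Summed in every tumor, they lay between 341 and 639 FPKM in PBS and between 660 and 972 FPKM in nonresponsive tumors (0.76, SE 0.32, limma adjusted p = 0.7). With genes that share a row joined in this way, the list held 14 loci with a median of 0.82, of which 3 were higher at that unadjusted level. The 12 resident macrophage genes had a median of 1.35, with Maf, Stab1, Gas6 and Igf1 higher at that level and 0 lower, all 4 named after their values were seen, the other lipid-associated genes a median of 0.70 with 0 in either direction, and the other M2-like genes a median of 0.04, with the chemokine Ccl8 higher and the chemokine Ccl22, named after its values were seen, lower. All 15 hepatocyte genes and all 8 sinusoidal endothelium genes were higher on average too, with 0 of either list at an unadjusted p under 0.05. Their part in the values of the resident macrophage genes was not tested. The 3 comparisons share their groups in pairs, so their values are not independent of each other.

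**Figure D3:**
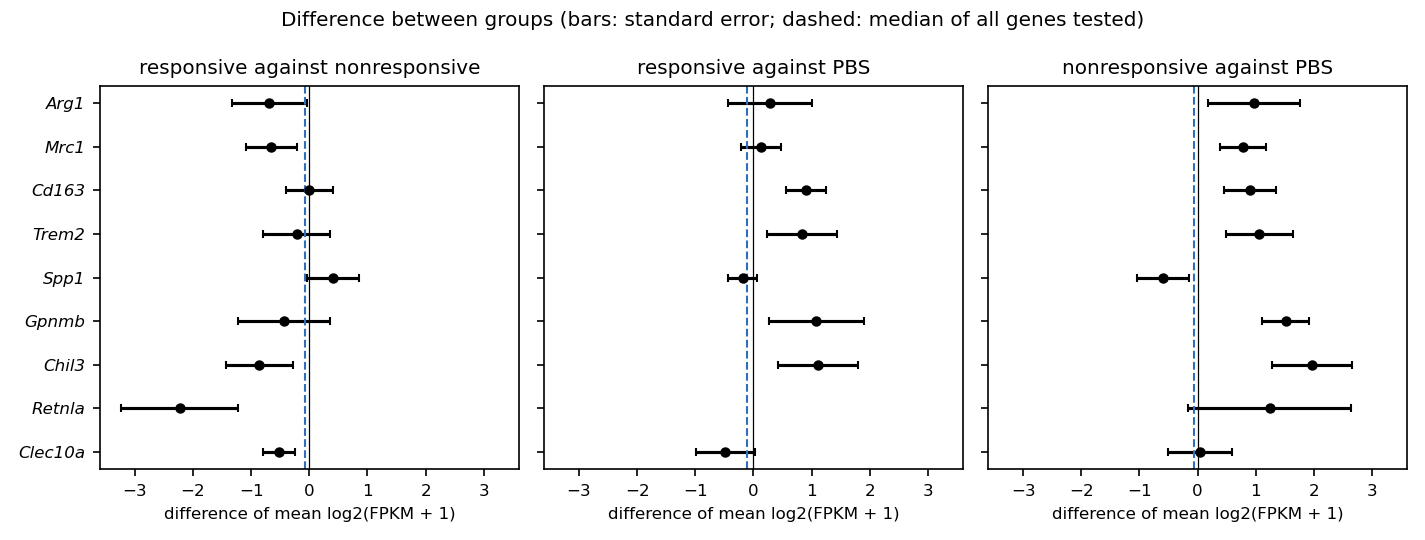
Difference of group means on the log2(FPKM + 1) scale (x axis) for 9 of the genes (y axis) in the 3 comparisons. Points are estimates, bars are 1 limma standard error and the dashed line is the median of all genes tested. Retnla was not tested between responsive and PBS tumors. Gpnmb at 1.52 and Chil3 at 1.97 in nonresponsive against PBS tumors lay farthest above 0 for their standard errors.

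The level of each member was next set against the level of general macrophage genes over the 9 tumors, as 10 of 24 relations of members with marker lists. All permutation p-values are exact and two-sided, and adjusted over the 24. Arg1 followed the macrophage genes with Pearson r = 0.92 and Spearman rho = 0.93 (permutation p = 0.000455 and 0.00075, adjusted p = 0.0109 and 0.0162). Trem2 had r = 0.93 and rho = 0.75 (permutation p = 0.00171 and 0.0255, adjusted p = 0.0159 and 0.0765). For Cd163 r was 0.86 and rho 0.77 (permutation p = 0.00362 and 0.0214, adjusted p = 0.0175 and 0.0733), and for Mrc1 r was 0.81 and rho 0.90 (permutation p = 0.00686 and 0.00203, adjusted p = 0.0274 and 0.0162). Gpnmb had r = 0.86 and rho = 0.72 (permutation p = 0.00364 and 0.0369, adjusted p = 0.0175 and 0.0885), and r was 0.55 (permutation p = 0.124, adjusted p = 0.196) with the genes that share its row summed. Chil3 had r = 0.75 and rho = 0.77 (permutation p = 0.021 and 0.0214, adjusted p = 0.0504 and 0.0733).

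Clec10a, Retnla and Spp1 had no relation with the macrophage genes that passed the test, with r = 0.22, -0.20 and -0.39 (permutation p = 0.573, 0.604 and 0.314, adjusted p = 0.655, 0.659 and 0.444). Their rho was 0.23, -0.02 and -0.17 (permutation p = 0.552, 0.982 and 0.678, adjusted p = 0.697, 0.982 and 0.772). Folr2 is given no correlation, and it was above 0 in the 4 tumors with the highest level of macrophage genes.

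Without PBS tumor 1 and nonresponsive tumor 1, the 2 farthest from the median of the macrophage genes, r was 0.79 for Arg1, 0.84 for Trem2, 0.80 for Cd163, 0.78 for Gpnmb and 0.89 for Mrc1 (permutation p from 0.00337 to 0.0431, n = 7), and after adjustment 0 of the 24 relations remained under 0.05. For Chil3 it fell to 0.38 (permutation p = 0.398, n = 7). As 3 tumors stood above the other 6, r was also taken within those 6, and it was 0.69 to 0.83 for Arg1, Mrc1, Cd163, Trem2, Gpnmb and Chil3 (permutation p from 0.0514 to 0.183, n = 6). Within groups, from deviations from the group means, r was 0.94 for Arg1, 0.91 for Trem2, 0.85 for Cd163, 0.78 for Gpnmb, 0.75 for Mrc1 and 0.56 for Chil3 (permutation p = 0.0139, 0.0324, 0.037, 0.0278, 0.0463 and 0.208, n = 9). These p-values come from the 216 ways to exchange tumors within their groups, which cannot give a p below 0.00463, and 0 of the 24 relations had an adjusted p under 0.05.

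**Figure D4:**
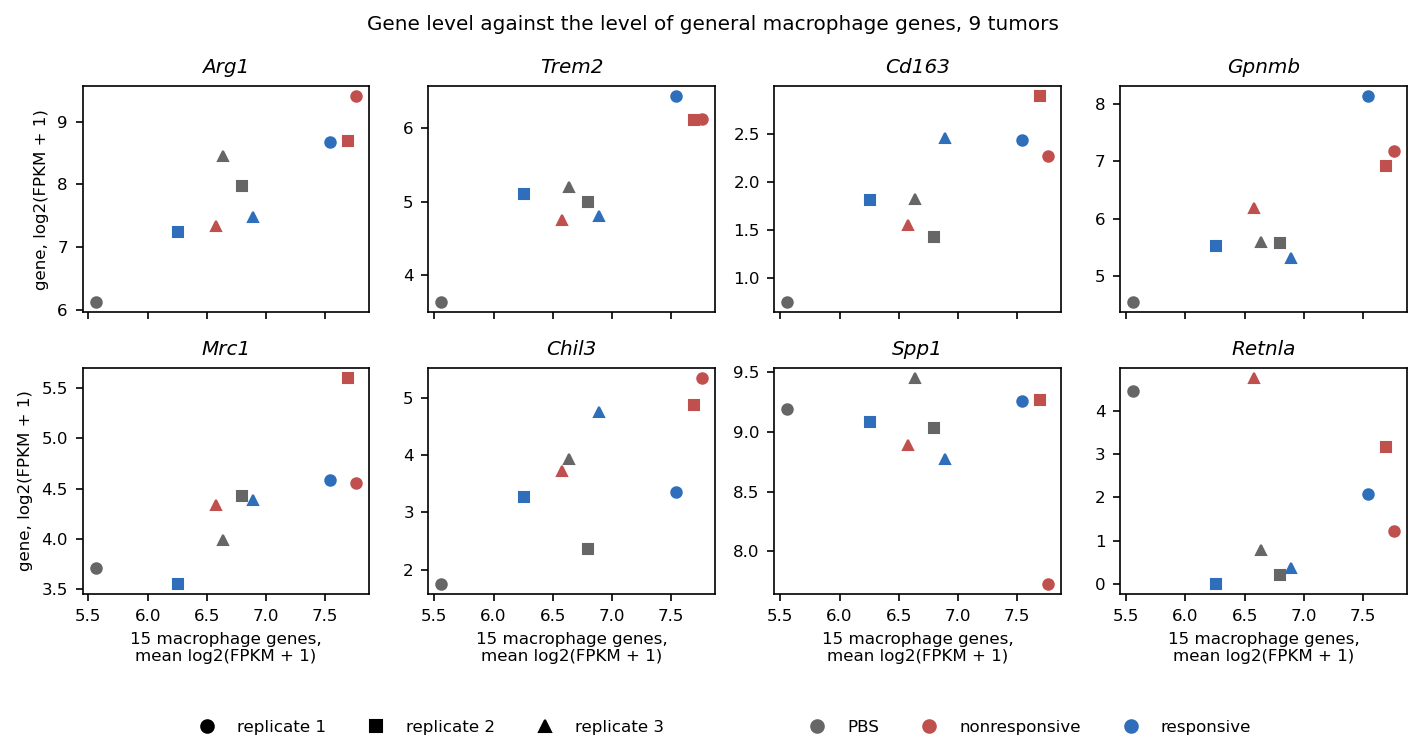
Level of 8 of the genes (y axis, log2(FPKM + 1)) against the mean level of 15 general macrophage genes (x axis, log2(FPKM + 1)) in the 9 tumors, with color for the group and shape for the replicate number. Pearson r was 0.92 for Arg1 and 0.93 for Trem2, against -0.39 for Spp1 and -0.20 for Retnla. Nonresponsive tumors 1 and 2 and responsive tumor 1 form the points on the right.

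Cd163 had r = 0.79 and rho = 0.77 with the hepatocyte list (permutation p = 0.012 and 0.0214, adjusted p = 0.0359 and 0.0733) and Trem2 had r = 0.76 and rho = 0.70 (permutation p = 0.015 and 0.0433, adjusted p = 0.0399 and 0.0944). Without PBS tumor 1 and responsive tumor 1, the farthest from the median of the hepatocyte genes, r was 0.49 for Cd163 and 0.17 for Trem2 (permutation p = 0.256 and 0.636, n = 7). Within groups r was 0.70 for Cd163 and 0.82 for Trem2 (permutation p = 0.102 and 0.0185, adjusted p = 0.204 and 0.111, n = 9). In the 6 tumors of lower macrophage level it was 0.94 and 0.83 (permutation p = 0.00556 and 0.0778, adjusted p = 0.133 and 0.286, n = 6). Arg1 had r = 0.64 and rho = 0.52 (permutation p = 0.0609 and 0.162, adjusted p = 0.125 and 0.299). Its r was 0.93 within groups (permutation p = 0.00463, the smallest possible there, adjusted p = 0.111, n = 9) and 0.04 without the 2 farthest tumors (permutation p = 0.93, n = 7). Macrophage and hepatocyte genes themselves had r = 0.69 and rho = 0.65 (permutation p = 0.0356 and 0.0666, adjusted p = 0.0728 over 6 pairs of lists), and r = 0.26 without the 2 tumors farthest from the median. Chil3 had r = 0.81 and rho = 0.90 with the neutrophil genes (permutation p = 0.00836 and 0.00203, adjusted p = 0.0287 and 0.0162), which was 0.65 (permutation p = 0.107, n = 7) without the 2 farthest tumors. Within groups its r with them was 0.84 (permutation p = 0.037, adjusted p = 0.111, n = 9). Macrophage and neutrophil genes themselves had r = 0.87 and rho = 0.88 (permutation p = 0.00267 and 0.00308, adjusted p = 0.016 for r). The relations of Chil3 with these 2 lists are therefore not separate. Mrc1 with sinusoidal endothelium had r = 0.46, Clec10a with dendritic cells 0.37 and Retnla with eosinophils -0.08 (adjusted p = 0.311, 0.447 and 0.836). Within groups these were 0.53, 0.88 and -0.75 (permutation p = 0.185, 0.125 and 0.0648, adjusted p = 0.278, 0.214 and 0.156, n = 9), and the value for Clec10a was -0.54 over the 9 tumors with Mgl2 summed in every tumor.

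Relative to the general macrophage genes of the same tumor, the group means lay closer together for several members and farther apart for Spp1 and Clec10a. Arg1 stood 1.18 ± 0.62 above their mean log2 level in PBS, 1.14 ± 0.45 in nonresponsive and 0.90 ± 0.28 in responsive tumors (SD, n = 3 each). Trem2 stood at -1.73 ± 0.26, -1.68 ± 0.13 and -1.45 ± 0.55, and Mrc1 at -2.29 ± 0.41, -2.52 ± 0.60 and -2.72 ± 0.23. Centred in this way, nonresponsive differed from PBS tumors by -0.05 (SE 0.62) for Arg1, -0.23 (SE 0.57) for Mrc1 and -0.11 (SE 0.50) for Cd163, where the uncentred differences were 0.97, 0.79 and 0.90. Chil3 had a difference of 0.95 (SE 0.60, limma adjusted p = 0.265) against 1.97 uncentred, and Gpnmb had 0.50 (SE 0.52, limma adjusted p = 0.432) against 1.52. Spp1 stood 2.89 ± 0.70 above the macrophage genes in PBS, 1.29 ± 1.20 in nonresponsive and 2.14 ± 0.60 in responsive tumors, and Clec10a stood at -2.60 ± 0.79, -3.58 ± 0.76 and -3.65 ± 0.74. Centring moved the median of all genes by more than 0.1, to 0.38, -0.68 and -1.07 in the 3 comparisons, against which these values are read.

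**Figure D5:**
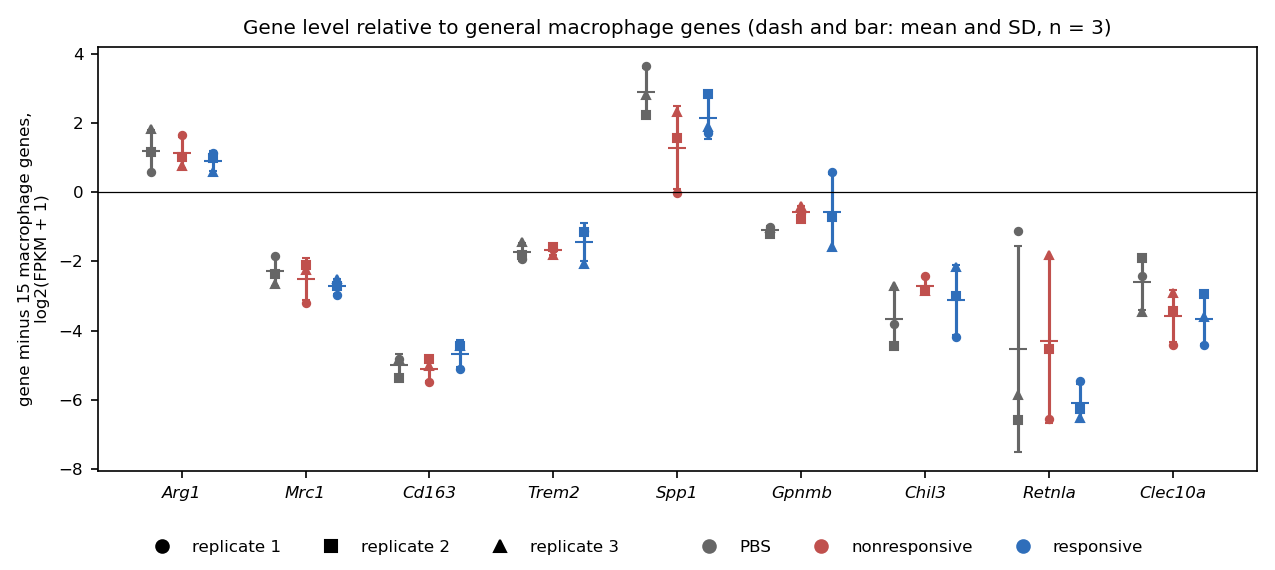
Difference of each gene's log2(FPKM + 1) from the mean of 15 general macrophage genes in the same tumor (y axis) for 9 genes (x axis), with color for the group and shape for the replicate number. Dashes and bars are the mean and SD of 3 tumors. Arg1, Trem2 and Cd163 lay at a like distance from the macrophage genes in all groups, while Retnla varied by several log2 units within the PBS and nonresponsive groups.

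The genes whose pattern over the 9 tumors was most like each member were found among 5435 or 5436 genes with an FPKM of at least 5 in every tumor and a row of their own. They are a description with no test, and the points share the scaling of each tumor. For Arg1 they were M6pr, Hmox1 and Tifa, with r from 0.97 to 0.99. For Trem2 they were Abhd12, Hmox1 and Abca1 (r = 0.96 each), where Hmox1 is heme oxygenase and Abca1 a cholesterol exporter. For Mrc1 they were Il33, Adam9 and Bach1 (r from 0.96 to 0.98), and for Gpnmb they were Ufsp2, the fatty acid receptor Cd36 and Trem2 itself (r from 0.92 to 0.97). For Spp1 they were Mrpl44, Ppp3cb and Mrpl17 (r from 0.91 to 0.93), of which Mrpl44 and Mrpl17 belong to the mitochondrial ribosome. Chil3 was most like Ogfrl1, Poldip3 and Ptgs1 (r = 0.90 each), Retnla like Ube2l3, Gtf2f2 and Mfap5 (r from 0.85 to 0.95) and Clec10a like Arid1b, Sparcl1 and Gm44429 (r from 0.87 to 0.91).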

How the data were processed

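RNA of 9 tumors (3 mice per group) was extracted with Trizol, made into TruSeq libraries and sequenced. Values are FPKM per gene row from Cufflinks, as deposited by the authors, in 1 table for each tumor. The submitters' processing notes name Bowtie2 2.2.4, TopHat2 2.1.1 and the build mm8, but coordinates in the tables do not settle the build and none is printed. Rows that name no gene held 19.2 to 81.5% of the summed FPKM of a tumor and were left out. Named rows summed to 650546 to 814187 FPKM. The table for the whole series holds Cuffdiff fold changes, p-values and pooled values, and was not used.

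FPKM of rows naming a gene were summed per tumor. Groups were compared with limma 3.58.1 in R 4.3.3 (lmFit, eBayes with trend, not robust) on log2(FPKM + 1), so differences of low genes are understated. Permutations of deviations from group means exchanged tumors within groups only. Correlations and plots used Python 3.11.15, numpy 2.4.6, pandas 2.3.3 and matplotlib 3.10.9. The limma test was also run on 20 simulated sets of 3 against 3 tumors (13845 genes, with a log2 change of 2 put into 200). Each gene was drawn independently around its mean over the 9 tumors, with the spread of the PBS tumors. The changed genes had a mean log2 level above 3. A p under 0.05 was reached by 89.6% of the changed and 5.09% of the other genes, and an adjusted p under 0.05 by 65.3% of the changed. These rates do not describe the spread within the antibody groups or genes of lower level. No pair of tumors were duplicates: at most 0.00814% of genes had identical values, and correlations lay between 0.841 and 0.957. The members, the 16 lists and the tests were chosen with earlier results of these data known. Named genes are the members, the 3 strongest genes of a list, genes most like a member, and others as stated. Alternatives were a pseudocount of 0.1, no filter or an FPKM of 5, 3 other scalings, joined loci, all 9 tumors in 1 fit, a replicate block and leaving out each tumor. Leaving out the 2 tumors with the lowest summed FPKM of Hepa1-6 genes, and correlating within 6 tumors, were added after seeing the data. P-values of group differences measure the spread between mice, which in the antibody groups were picked from the extremes of tumor size. Those of correlations come from the pairings of values over tumors.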

Additional observations from a re-analysis of the deposited data

How the results depend on the processing

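No member passed an adjusted p of 0.05 with limma in any comparison under any alternative, leaving out each tumor included (0 to 0 members). At an unadjusted p of 0.05 the leave-one-out counts were 0 to 2 for responsive against nonresponsive, 0 to 2 for responsive against PBS and 1 to 4 for nonresponsive against PBS tumors. The cause of the changes below was not tested, except that centring subtracts 1 value per tumor from every gene: it moved the median of all genes to 0.38, -0.68 and -1.07, so a turn of sign under it is relative to the macrophage genes.

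Directions turned as follows, as log2 differences. Responsive against nonresponsive: Cd163 0.021 with a pseudocount of 0.1 and 0.018 with upper-quartile scaling; centred on the macrophage genes, Cd163 0.45, Trem2 0.23 and Gpnmb 0.013; Spp1 -0.15 without the 2 tumors low in Hepa1-6 genes. Responsive against PBS: Mrc1 -0.011 rescaled over named rows; centred, Arg1 -0.28, Mrc1 -0.43 and the median of the members -0.0049. Nonresponsive against PBS, centred: Arg1 -0.045, Mrc1 -0.23, Cd163 -0.11, Clec10a -0.98 and the median -0.045; Clec10a -0.086 with joined loci. Leaving out each tumor, responsive against nonresponsive gave -0.35 to 0.33 for Cd163, -0.71 to 0.10 for Trem2, -0.043 to 0.73 for Spp1 and -1.33 to 0.068 for Gpnmb. Responsive against PBS gave -0.41 to 0.75 for Arg1, -0.072 to 0.44 for Mrc1 and -0.79 to 0.093 for Clec10a, and nonresponsive against PBS -0.27 to 0.61 for Clec10a. The members' median ranged from -0.81 to -0.19, 0.05 to 0.94 and 0.61 to 1.25 in the same order of comparisons, with Folr2 among the members in the first.

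Of the 24 correlations, 9 had an adjusted p under 0.05, or 8 without Folr2, against 0 without the 2 farthest tumors, 0 within the 6 tumors of lower macrophage level and 0 within groups. Signs turned for Retnla with eosinophils (0.16 with a pseudocount of 0.1, 0.024 rescaled), for Clec10a with macrophages (-0.39) and dendritic cells (-0.54) with joined loci, and for Clec10a with hepatocytes (0.22 within groups, 0.017 within the 6 tumors). Without the 2 farthest tumors they turned for Spp1 (0.31) and Retnla (0.34) with macrophages and for Mrc1 (-0.21) and Gpnmb (-0.053) with hepatocytes.

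Replicate numbers did not pair the tumors (same-number correlations of deviations -0.42 to 0.52). With the replicate block, genes at an unadjusted p under 0.05 went from 760 to 937, 2385 to 948 and 445 to 237, those at an adjusted p under 0.05 from 16 to 1, 32 to 0 and 11 to 0, and 0 members passed the adjustment. Centring on the macrophage genes gave 818, 844 and 986 genes at the unadjusted threshold, no filter 1081, 2879 and 812, and a filter at an FPKM of 5 gave 568, 1831 and 269. The share of these calls that were higher, 73.8%, 49.2% and 47.0%, was 35.1%, 29.8% and 58.6% rescaled over named rows (median of all genes -0.25, -0.25 and -0.01) and 96.7%, 58.6% and 2.13% centred. It was 56.9% and 59.2% with all 9 tumors in 1 fit for the comparisons of responsive tumors, and 68.5% for responsive against PBS with the block.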
